A study of Drosophila melanogaster with 4 samples.

Results

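The proteasome is the large protease that degrades ubiquitin-tagged proteins in every eukaryotic cell. Its core particle is a barrel of stacked rings, in which alpha subunits form the gate and beta subunits, some of them catalytic, form the chamber. The regulatory particle caps the barrel, with Rpt subunits forming a ring of ATPases that unfolds substrates and Rpn subunits binding ubiquitin, removing it and holding the cap together. In Drosophila several subunit genes have a second copy that is used in the male germ line. Members were the entries of the gene tables whose symbol starts with Pros, Rpn or Rpt, apart from the neural gene pros and any name starting with Prosap, and 42 of 14146 entries met this rule. They comprised 27 canonical subunit genes (12 of the core and 15 of the regulatory particle), 13 copies and 2 entries of Prosalpha1 that are treated separately because their reads were shared with an overlapping gene.

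RNA came from fat bodies, the insect counterpart of liver and adipose tissue, of yw larvae in the 3rd instar at 110 h after egg laying, with 10 fat bodies pooled in each sample. The ND-75-i group (2 samples) had the genotype dMef2-Gal4/UAS-ND-75-RNAi and the Con group (2 samples) dMef2-Gal4/UAS-white-RNAi, so both groups carried the driver and an RNAi construct. dMef2-Gal4 drives expression in muscle, so that the knockdown was directed at muscle and the fat body was read as a distant tissue. ND-75 encodes a subunit of mitochondrial complex I, and white an eye-pigment transporter. The sex of the larvae is not given. Nor is it stated whether replicates were separate crosses, and the spread behind each p-value may thus be technical.

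Levels are FPKM, fragments scaled to transcript length and to the size of the library, and no read counts accompany them. Summed FPKM were 957235 and 942561 in the ND-75-i libraries and 861027 and 849472 in the Con libraries. ND75, the knockdown target, was higher in the fat body of ND-75-i, at 94.8 and 79.0 FPKM in ND-75-i and 46.6 and 43.9 in Con (log2 difference 0.92, SE 0.125, adjusted p = 0.0354), which does not check the knockdown in muscle. The gene w, target of the construct in Con, was at 2.11 and 6.96 FPKM in ND-75-i and 2.48 and 5.37 in Con. Levels of some fat body genes lay far apart: Fbp1 was at 22.5 and 393 FPKM in ND-75-i and at 14971 and 17897 in Con. Of 14 fat body markers listed, 10 were found with status OK in every library. These 10 summed to 14486 and 26446 FPKM in ND-75-i and 76839 and 80582 in Con. That sum is mostly Fbp1, Fbp2 and Lsp1alpha: of the 10 markers 4 had both ND-75-i libraries above both Con libraries and 5 below, 2 (Cg25C and CG15828) were called higher and 1 (Lsp1alpha) lower, and their median log2 difference was −0.13. The 16 muscle markers summed to 199 and 174 FPKM in ND-75-i and 144 and 143 in Con, with 10 of them above, 3 below and none called. Most of that sum was Tm1, at 112 and 112 FPKM in ND-75-i and 94.2 and 86.6 in Con. Over all entries tested, 53.6% lay above and 21.7% below, the shares to set beside each marker list here. The 10 hemocyte markers summed to 70.6 and 89.6 FPKM in ND-75-i and 104 and 245 in Con, with 5 of the 9 tested below and none called. The 9 salivary gland markers summed to 37529 and 29148 FPKM in ND-75-i and 82753 and 38928 in Con. Of these 3 lay above, 5 below, and 1 (ng1) was called higher. The 10 midgut markers summed to 768 and 2196 FPKM in ND-75-i and 388 and 2807 in Con. Of the 6 midgut markers tested, 1 (Jon99Ciii) lay above and was called higher, and none lay below. What part these differences play in the values of the subunits was not tested.

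The canonical subunits were highly and evenly expressed in every library and stayed within a narrow band between the groups. Their summed level was 2773 and 2773 FPKM in the ND-75-i libraries and 2452 and 2572 in the Con libraries. None of the 27 was called at an adjusted p of 0.05 by limma on log2(FPKM + 1), the scale of all log2 differences given here, with adjustment over all 10049 entries tested. In that test 771 entries (7.67%) were called higher and 110 (1.09%) lower in ND-75-i. At an unadjusted p under 0.05, Prosbeta5, Rpn11 and Rpt3 were higher and no canonical subunit was lower, against 29.3% higher and 7.72% lower of all entries tested. With median-ratio rescaling the same count was 0 higher and 2 lower, and with quantile normalization 0 higher and 10 lower. Without the filter on low values it was 8 higher and 0 lower, where 3288 and 768 of 13999 entries were.

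Of the 27 canonical subunits, 22 had both ND-75-i libraries above both Con libraries, a pattern seen in 53.6% of all entries tested, and none had both below, against 21.7% of all entries. The groups overlapped for Pros26.4, Rpt4, Prosalpha7, Prosbeta1 and Rpn12. The median log2 difference of the 27 was 0.13, a 1.10-fold ratio, against a median of 0.25 over all entries tested, but it was −0.17 after median-ratio rescaling of the libraries and −0.20 after quantile normalization. The direction of so small a difference therefore depended on the scaling. Relative to the median of all entries, the canonical median lay lower by 0.11 as deposited, by 0.15 after median-ratio rescaling and by 0.25 after quantile normalization. Without the filter on low values the difference was 0.0019. In that run the canonical median was unchanged at 0.13, and the median of all entries was 0.129 over a larger set of 13999 entries.

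**Figure D1:**
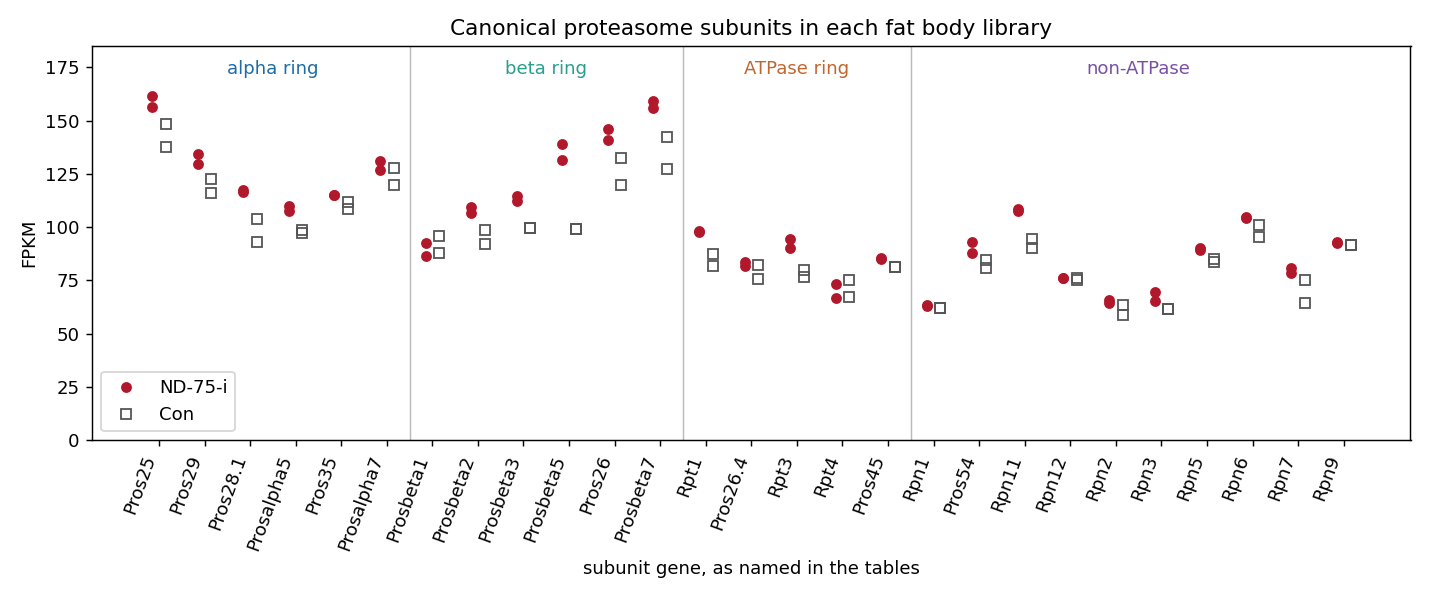
FPKM of each canonical proteasome subunit gene in the 2 ND-75-i libraries (filled circles) and the 2 Con libraries (open squares), grouped by position in the complex. Levels lie between 58.8 and 162 FPKM, and for 22 of the 27 genes both circles lie above both squares, a direction that turned for most subunits under the other scalings.

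The spread among subunits was small next to that of genes at the same level. The log2 differences of the 27 had an SD of 0.102 and ranged from −0.03 to 0.44. The 597 entries tested with a mean FPKM between the lowest and highest subunit (62.7 to 151) had an SD of 0.928, and 122 of them (20.4%) were called higher and 19 (3.18%) lower. Replicates also lay close together, with a median difference of 2.22% between the ND-75-i libraries and 5.71% between the Con libraries, against 8.40% and 11.6% for the 597 entries. The bounds deposited with each FPKM had a median half-width of 4.88% and 5.22% in ND-75-i and 5.65% and 5.45% in Con for the subunits. The order of the 27 levels was nearly the same in each pair of libraries, with Spearman's rho of 0.937 to 0.988 over the 27 subunits, which share libraries and depth; this is a description. The ratio of the highest to the lowest subunit within a library was 2.53 and 2.55 in ND-75-i and 2.34 and 2.41 in Con.

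**Figure D2:**
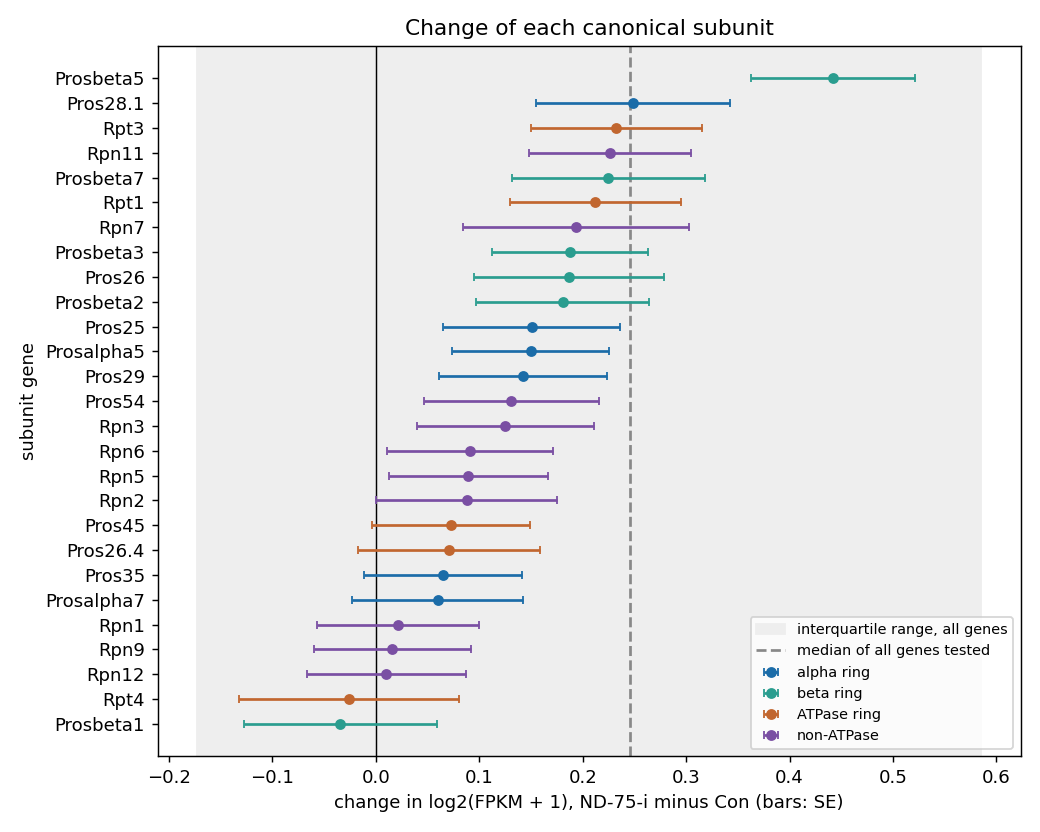
Difference in log2(FPKM + 1), ND-75-i minus Con, of each canonical subunit with its standard error from limma, coloured by position in the complex; the dashed line is the median of all entries tested (0.25) and the shaded band their interquartile range (−0.17 to 0.59). All subunits fall inside the band, from −0.03 for Prosbeta1 to 0.44 for Prosbeta5, and most differences turn negative under the other scalings.

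Core subunits were more abundant than regulatory subunits per length of transcript. Their median level was 123 and 122 FPKM in ND-75-i and 106 and 106 in Con, and that of the regulatory subunits was 85.1 and 85.6 in ND-75-i and 76.8 and 80.6 in Con. The ratio of the core median to the regulatory median was 1.44 and 1.43 in ND-75-i and 1.38 and 1.32 in Con, so the groups did not overlap in this ratio. The median log2 difference was 0.17 for the 12 core subunits and 0.09 for the 15 regulatory subunits, and the difference between the particles was not tested. In 10 of the 12 core and 12 of the 15 regulatory subunits both ND-75-i libraries were above both Con libraries, against 53.6% of all entries.

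In the alpha ring, which gates the barrel, the 6 members had log2 differences of 0.06 to 0.25. Pros25 (alpha2) was the most abundant of them, at 156 and 162 FPKM in ND-75-i and 138 and 149 in Con. Pros28.1 (alpha4) had the largest difference in the ring, with 117 and 117 FPKM in ND-75-i and 93.0 and 104 in Con (log2 difference 0.25, adjusted p = 0.144). Pros35 (alpha6) and Prosalpha7 were nearly level, Pros35 at 115.3 and 115.2 FPKM in ND-75-i and 112 and 109 in Con. Pros29 (alpha3) and Prosalpha5 lay between, each with both ND-75-i libraries above both Con libraries.

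In the beta ring, the 3 catalytic subunits had unlike values, though the differences between them were not tested. Prosbeta5, which carries the chymotrypsin-like activity, was at 131 and 139 FPKM in ND-75-i and at 99.2 and 99.1 in Con. Its groups did not overlap, and its log2 difference of 0.44 (SE 0.0796) missed the threshold with an adjusted p of 0.0538. It passed, with an adjusted p of 0.0475, when only entries with a mean of at least 5 FPKM were tested, and adjusted p was 0.434 and its log2 difference 0.14 after median-ratio rescaling. Prosbeta2, with the trypsin-like activity, was at 109 and 107 FPKM in ND-75-i and 92.1 and 98.5 in Con, a log2 difference of 0.18. Prosbeta1, with the caspase-like activity, was at 86.6 and 92.5 FPKM in ND-75-i and 87.9 and 95.6 in Con, and its groups overlapped (log2 difference −0.03, adjusted p = 0.791). The structural members Prosbeta3, Pros26 (beta6) and Prosbeta7 had log2 differences of 0.19, 0.19 and 0.22. Prosbeta4 is listed as CG17331, outside the naming rule, and resembled Prosbeta5: it was at 117 and 117 FPKM in ND-75-i and 88.8 and 88.0 in Con (log2 difference 0.40, SE 0.0752, adjusted p = 0.0565). Its adjusted p was 0.0449 without the filter on low values, 0.525 at a log2 difference of 0.10 with median-ratio rescaling, and 0.649 at 0.054 with quantile normalization.

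Among the ATPases, which unfold substrates and feed them into the barrel, Rpt3 was at 94.5 and 90.0 FPKM in ND-75-i and 76.8 and 80.0 in Con (log2 difference 0.23, adjusted p = 0.133). Rpt1 was at 98.3 and 97.7 FPKM in ND-75-i and 81.7 and 87.3 in Con, with no overlap. The Rpt1 gene lies wholly inside the listed extent of CG17985, which was at 9.44 to 14.9 FPKM, and the strand setting of the counting is not given, so its reads may be shared. Rpt4 was at 66.8 and 73.3 FPKM in ND-75-i and 67.4 and 75.4 in Con, an overlap. Pros26.4 (Rpt2) overlapped between the groups as well, and Pros45 (Rpt6) stood at 85.1 and 85.6 FPKM in ND-75-i and 81.1 and 81.1 in Con. Pros45 shares most of its extent with CG1801, which was at 0.115 to 1.22 FPKM. Tbp-1 (Rpt5), outside the rule by name, was at 80.4 and 72.7 FPKM in ND-75-i and 69.1 and 72.1 in Con.

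Of the non-ATPase subunits, Rpn11, the deubiquitinase of the lid, was at 108 and 109 FPKM in ND-75-i and 90.3 and 94.3 in Con (log2 difference 0.23, adjusted p = 0.129). Mov34 (Rpn8), the partner of Rpn11 in the lid, is named outside the rule and overlapped between the groups, at 83.6 and 74.5 FPKM in ND-75-i and 80.9 and 81.8 in Con. The ubiquitin receptor Pros54 (Rpn10) was at 93.2 and 88.0 FPKM in ND-75-i and 84.6 and 80.6 in Con. Rpn13, another ubiquitin receptor, is listed as CG13349 outside the rule. It had 102 and 92.6 FPKM in ND-75-i and 72.7 and 78.6 in Con (log2 difference 0.36, adjusted p = 0.0950). Rpn1, Rpn9 and Rpn12 had log2 differences of 0.02, 0.02 and 0.01 as deposited, and of −0.28, −0.29 and −0.29 with median-ratio rescaling. The scaffold Rpn1, for example, was at 62.98 and 63.30 FPKM in ND-75-i and 62.1 and 62.2 in Con. The remaining lid and base subunits Rpn2, Rpn3, Rpn5, Rpn6 and Rpn7 had differences of 0.09 to 0.19 without overlap. The small lid subunit Sem1, listed as CG13779, was the most abundant of all the subunits looked at, at 258 and 247 FPKM in ND-75-i and 218 and 237 in Con.

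The copies were low in all libraries, lay below Con in most comparisons without passing the test, and were lowest of all in 1 ND-75-i library. Of the 13 copies, 8 have names ending in T, R or B, 4 have T or R before a final digit, and Pros28.1A is an older name of the same kind. The summed level of the 13 was 37.5 and 8.56 FPKM in ND-75-i and 71.3 and 48.5 in Con, which was 1.35% and 0.309% of the canonical sum in ND-75-i and 2.91% and 1.88% in Con. All 13 copies had their lowest level in ND-75-i replicate 2, and 11 had their highest in Con replicate 1. The shares of all entries lowest or highest in those libraries were not counted. All 13 copies were higher in ND-75-i replicate 1 than in replicate 2, as were 2550 of 3435 tested entries in their FPKM range. Con replicate 1 was above Con replicate 2 in 12 of the 13 copies and in 1714 of those entries. Only 3 copies reached 1 FPKM in ND-75-i replicate 2, against 12 in ND-75-i replicate 1. The deposited bounds of the copies had median half-widths of 32.9% and 70.7% in ND-75-i and 25.2% and 31.2% in Con.

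Of the 12 copies tested none was called higher or lower by limma, and 2 (Prosalpha6T and Pros28.1A) were lower at an unadjusted p under 0.05, against 7.72% of all entries. That count moved in both directions with the setting. It was 6 with median-ratio rescaling and 10 with quantile normalization, where 1771 and 1839 of all 10049 entries were lower. With a pseudocount of 5 it was 4 and with a pseudocount of 0.1 it was 1, where 983 and 551 entries were lower. Without the filter on low values it was 0 of 13, where 768 of 13999 entries were lower. Prosalpha3T was too low to be tested, at 0.835 and 0.245 FPKM in ND-75-i and 1.51 and 0.985 in Con. For 10 of the 12 both ND-75-i libraries were below both Con libraries, against 21.7% of all entries tested. The median log2 difference was −1.17, and it stayed negative in every alternative run. It was −0.55 without ND-75-i replicate 2, with 11 of 12 copies still negative, and −1.75 without ND-75-i replicate 1, so the size rested on which ND-75-i library was kept. The cells in which these transcripts arose are not known. In a sample of dissected tissue, fewer cells of a type and less RNA per cell cannot be told apart.

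Prosalpha6T, a copy of the alpha6 gene that male flies need for fertility, was at 1.94 and 0.355 FPKM in ND-75-i and 4.73 and 5.27 in Con (log2 difference −1.59, SE 0.439, adjusted p = 0.0958). It had the largest difference of the copies, while its partner Pros35 was nearly level between the groups. Pros28.1A and Pros28.1B, copies of the alpha4 gene, had the same pattern. Pros28.1A was at 1.33 and 0.490 FPKM in ND-75-i and 4.01 and 2.26 in Con, and Pros28.1B at 2.57 and 0.393 against 5.15 and 3.24. Among beta copies, Prosbeta5R was at 2.26 and 0.562 FPKM in ND-75-i and 5.18 and 3.07 in Con, whereas Prosbeta5 itself was higher in both ND-75-i libraries. Prosbeta2R2 was at 3.63 and 0.702 FPKM in ND-75-i and 6.25 and 4.58 in Con. Prosbeta2R1 was almost absent from ND-75-i replicate 2, at 0.0881 FPKM.

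Prosbeta4R1 and Prosbeta4R2, close together on chromosome arm 2L (starts at 2653112 and 2655394, in the coordinates of the deposited tables, whose build is not given in the sources used here), were the exceptions. Prosbeta4R1 was at 5.03 and 1.16 FPKM in ND-75-i and 7.13 and 4.14 in Con. Prosbeta4R2 was at 2.81 and 0.527 FPKM in ND-75-i and 2.56 and 1.66 in Con. In both genes ND-75-i replicate 1 lay within or above the Con values, so the groups overlapped. The log2 difference of Prosbeta4R2 was −0.35, and 0.31 without ND-75-i replicate 2.

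The copies of regulatory subunits followed the copies of core subunits, with median log2 differences of −1.22 and −1.13. Rpn12R was at 3.29 and 0.883 FPKM in ND-75-i and 9.84 and 4.92 in Con (log2 difference −1.49, adjusted p = 0.139). Rpt6R, the most abundant copy in ND-75-i replicate 1, was at 5.403 and 1.05 FPKM in ND-75-i and 8.60 and 6.62 in Con. Rpt3R was at 3.73 and 1.37 FPKM in ND-75-i and 7.63 and 5.27 in Con, and Rpt4R at 3.09 and 0.730 FPKM in ND-75-i and 6.04 and 4.34 in Con. Rpn12R and Pros28.1A lie wholly within the extents of Sytbeta and CG42322, which were at 0.139 to 1.79 FPKM with both ND-75-i libraries above both Con libraries. Outside the naming rule, the copies CG31742 (Prosbeta5R2) and CG6789 (Rpn13R) were likewise lowest in ND-75-i replicate 2, at 0.0825 and 0.163 FPKM.

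**Figure D3:**
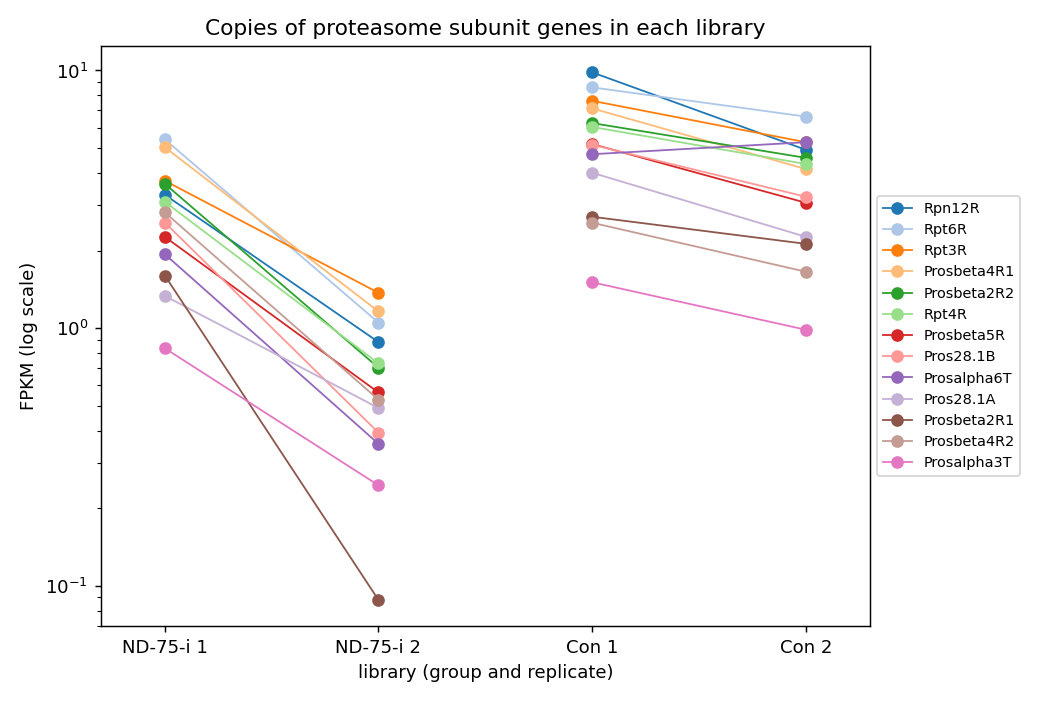
FPKM on a log scale of the 13 copies of subunit genes in each library, ND-75-i at the left and Con at the right; each line joins the replicates of 1 gene and stands for no order among them. Every copy has its lowest level in ND-75-i replicate 2, and Prosbeta4R1 and Prosbeta4R2 are the copies tested whose groups overlap.

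Relative to their canonical partners, the copies had a median level of 2.40% and 0.450% in ND-75-i and 5.53% and 4.65% in Con. The median ratio of ND-75-i replicate 1 to replicate 2 was 4.34 over the copies (2.72 to 18.2), and that of the Con libraries was 1.53. The corresponding median ratio in ND-75-i was 1.24 over 3435 tested entries in the FPKM range of the copies and 1.07 over the 9871 tested entries above 0 in every library. In larvae the gonads lie embedded in the fat body, and markers of the male germ line were therefore set beside the copies. Of 27 such markers 26 were found and 22 tested; none was called, 18 had both ND-75-i libraries below both Con libraries (21.7% of all entries) and 2, Pif1A and mia, had them above (53.6% of all entries). None was listed at 0 in all libraries, and 22 of the 26 were lowest in ND-75-i replicate 2, a share not counted over all entries. betaTub85D, the testis tubulin, was at 18.3 and 2.78 FPKM in ND-75-i and 39.8 and 37.8 in Con.

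The male germline markers summed to 498 and 212 FPKM in ND-75-i and 659 and 509 in Con, and the copies amounted to 7.54% and 4.04% of this sum in ND-75-i and to 10.8% and 9.53% in Con. Pif1A made up much of this in ND-75-i, at 178 and 141 FPKM against 112 and 95.6 in Con, and was left out of a second sum after its values were seen. Without it the markers summed to 320 and 71.0 FPKM in ND-75-i and 548 and 413 in Con. The copies amounted to 11.7% and 12.1% of that reduced sum in ND-75-i and to 13.03% and 11.7% in Con. The narrower range of the second share rests on leaving out Pif1A. The 3 male dosage compensation genes were, like most copies, higher in replicate 1 than in replicate 2 of each group. Unlike most copies, none had both ND-75-i libraries below both Con libraries. The RNA roX1 was at 97.0 and 17.8 FPKM in ND-75-i and 27.1 and 16.3 in Con, and roX2 at 11.8 and 1.58 against 4.84 and 0.584. The third, msl-2, was at 6.78 and 4.03 FPKM in ND-75-i and 3.29 and 3.00 in Con, without overlap. The part of germline tissue or of the sex of the larvae in the level of the copies was not tested.

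**Figure D4:**
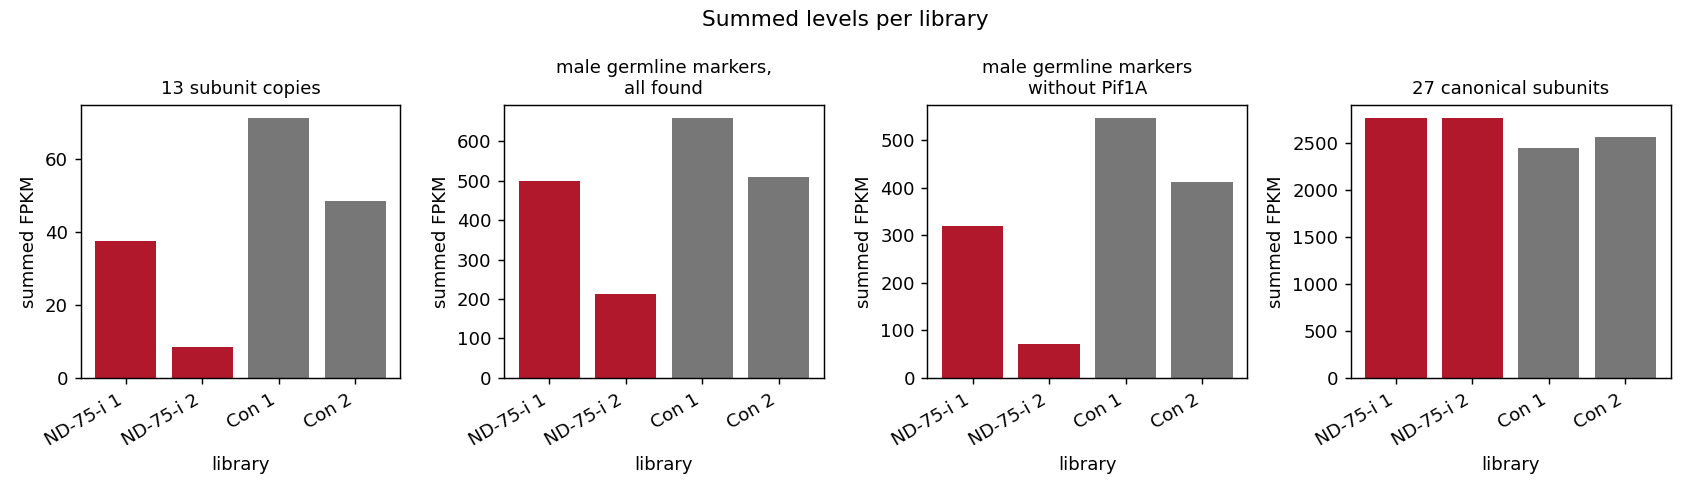
Summed FPKM in each library, ND-75-i left of Con, of the 13 copies, of the male germline markers with and without Pif1A (left out after its values were seen) and of the 27 canonical subunits; each panel has its own axis from 0. ND-75-i replicate 2 is lowest in the first 3 panels, at 8.56, 212 and 71.0 FPKM, while the canonical sums stay between 2452 and 2773 FPKM.

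Prosalpha1, the remaining alpha subunit, is listed at 2 places on chromosome arm 2R (3714808 to 3716181 and 3717918 to 3719291, in the coordinates of the deposited tables). Each place also has an entry of CG30382 (Prosalpha1R), which overlaps it almost fully. The first Prosalpha1 entry was at 4.90 and 5.25 FPKM in ND-75-i and 0.000432 and 3.51 in Con, the last with bounds of 0 to 38.0. The second entry was at 4.87 and 0.00607 FPKM in ND-75-i and 59.4 and 107 in Con (log2 difference −5.05, SE 0.959, adjusted p = 0.0573), and passed the threshold as lower in 4 alternatives, with an adjusted p of 0.0286 to 0.0454. CG30382 at the same place went the other way, at 89.6 and 89.8 FPKM in ND-75-i and 26.9 and 1.29e-05 in Con, and was not tested because its status was not OK in every library.

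When the overlapping entries were added, the difference was no longer there. The second place totalled 94.4 and 89.8 FPKM in ND-75-i and 86.3 and 107 in Con, and the first 91.5 and 89.5 in ND-75-i and 90.5 and 112 in Con. The sum of all 4 entries was 186 and 179 FPKM in ND-75-i and 177 and 219 in Con, a ratio of 0.922 with overlapping groups. No direction is drawn from the single entries of Prosalpha1.

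**Figure D5:**
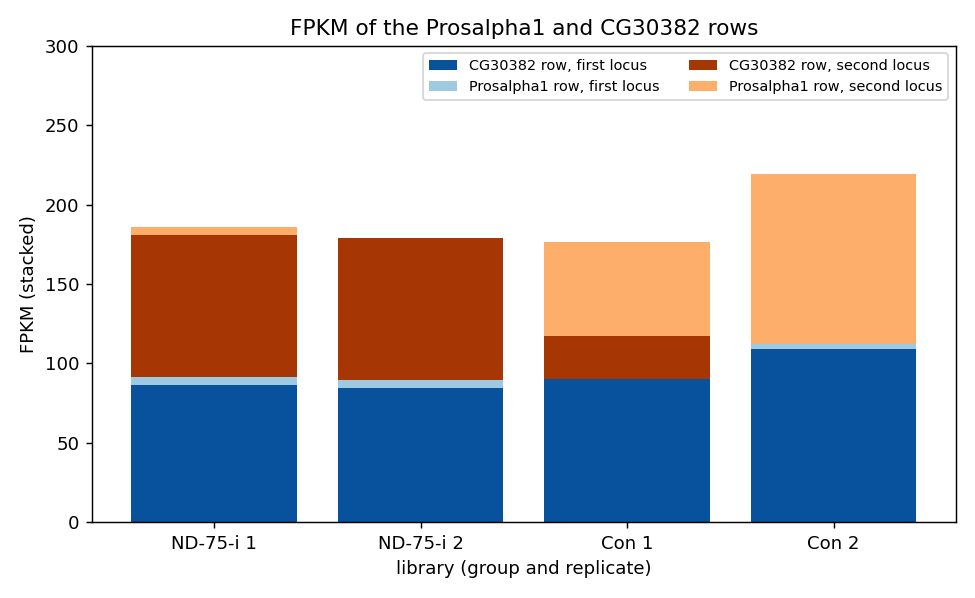
Stacked FPKM of the Prosalpha1 and CG30382 entries at their 2 places, for the ND-75-i libraries (left) and the Con libraries (right). The total is 186, 179, 177 and 219 FPKM from left to right, while the share given to each entry at the second place changes between the groups. The CG30382 entry at the second place did not have status OK in any library.

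Genes that assemble, regulate or work with the proteasome were compared from a list of 44 names, of which 34 genes were found and tested. None was called. At an unadjusted p under 0.05, 5 were higher and none lower, against 29.3% and 7.72% of all entries, but 1 was higher and 10 lower with median-ratio rescaling, and 1 higher and 9 lower with quantile normalization. Both ND-75-i libraries were above both Con libraries in 12 and below in 4, against 53.6% and 21.7% of all entries. The median log2 difference was 0.06 as deposited, −0.23 with median-ratio rescaling and −0.18 with quantile normalization. The transcription factor cnc, whose mammalian relatives induce proteasome genes, was at 43.1 and 44.1 FPKM in ND-75-i and 44.5 and 41.6 in Con. Its partner maf-S was at 37.8 and 35.4 FPKM in ND-75-i and 31.0 and 28.7 in Con, one of the 5. Pomp, the maturation factor of the core, was at 69.4 and 65.4 FPKM in ND-75-i and 65.5 and 66.0 in Con, and TER94, the segregase that extracts ubiquitinated proteins, at 144 and 142 against 137 and 138.

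The activator REG, which binds the core in place of the regulatory particle, was at 66.8 and 67.0 FPKM in ND-75-i and 41.1 and 51.0 in Con (log2 difference 0.54, adjusted p = 0.0818). Pngl, a peptide N-glycanase acting on glycoproteins due for degradation, was at 29.8 and 29.5 FPKM in ND-75-i and 20.1 and 21.3 in Con (log2 difference 0.50, adjusted p = 0.0596). CG7220 was at 26.2 and 19.6 FPKM in ND-75-i and 12.6 and 11.8 in Con, and the ubiquitin-conjugating enzyme UbcD6 at 52.6 and 48.2 against 38.2 and 40.5. Pngl and CG7220 passed the threshold, with adjusted p of 0.0393 and 0.0482, when only entries with a mean of at least 5 FPKM were tested. The proteasome-bound deubiquitinases CG5384 (Usp14) and Uch-L3 (the older name under which Uch-L5 is listed) had log2 differences of 0.08 and 0.09.

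The gene models of the annotation at hand gave 1 further description. A single coding exon was found in 4 of the 13 copies (30.8%), in 4 of the 27 canonical genes (14.8%) and in 2926 of 13986 coding genes (20.9%). The median number of coding exons was 2 in the copies, 3 in the canonical genes and 3 in all coding genes. Copies and canonical genes were spread over all major chromosome arms, with 5 of the 13 copies and 8 of the 27 canonical genes on 3R.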

How the data were processed

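For each library the authors deposited 1 table of FPKM, with bounds and a status for every gene, per the file headers. Of the software, the submitters' processing notes name Bowtie 0.12.2. No source used here gives the FPKM program, build, annotation or strand setting. The tables hold no counts, so sequencing depth is unknown. Con replicate 1 had 5 names turned into dates, which were matched by position. Coordinates have 1 added to each start.

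Entries were kept separate where a symbol occurs at more than 1 place. Those with status OK in all 4 libraries and at least 1 FPKM in at least 2 were tested with limma 3.58.1 (R 4.3.3) on log2(FPKM + 1). The fit had group alone and a trend in intensity. Tests were two-sided, adjusted by Benjamini-Hochberg over 10049 entries, with a threshold of 0.05. On simulated data of 10049 entries, with a spread that varied between entries as in the real fit (a first simulation with an equal spread called more of the 2-fold changes and was replaced), 25 of 100 changes of 2-fold and 84 of 100 of 4-fold were called, and 10 of 9849 unchanged entries. The changed entries were drawn only from those above a set mean level, so the shares of changes called cover only such entries. What share of changes would be called at levels as low as those of the copies was not tested. The alternatives were other scalings, pseudocounts and filters, a replicate block, a minimum fold and leaving out each library. Of the genes named, the members may all be named, related genes are named where they passed or were picked by the design (cnc, Pomp, TER94, REG, Usp14, Uch-L5), and subunits listed under another name come from a list; maf-S, Pngl, CG7220, UbcD6, Fbp1 and the single markers were named after their values were seen. The members and lists were chosen with earlier results of these data known. The sums for Prosalpha1, the sum without Pif1A, the genes of like level and the gene models were added after the values were seen. Current names were matched for 49 of 49 subunit symbols. The annotation at hand (Release 6 names and BDGP6 gene models) was used for names and exons only. A motif description of promoters was not run, and no sequence is shown.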

Additional observations from a re-analysis of the deposited data

How the results depend on the processing

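No canonical regulatory subunit was called under any alternative, and the copies' median stayed negative throughout. When only entries with a mean of at least 5 FPKM were tested, 1 member was called higher (Prosbeta5, of the core), 1 lower (the second Prosalpha1 entry) and 2 related genes higher. Quantile normalization called 2 members lower, of which 1 was a copy (Prosalpha6T, adjusted p = 0.0348), and 1 related gene lower; a pseudocount of 5 called 1 member lower. Over all entries tested, 326 were called higher after median-ratio rescaling and 220 without the filter on low values, and 380 were called lower after quantile normalization, 51 without that filter and 68 with a minimum of 2-fold. Entries called higher made up 87.5% of the calls as deposited, 71.3% with median-ratio rescaling and 61.4% with quantile normalization. Leaving out 1 library gave 0 to 0 calls in limma in each direction over all entries, with 1706 to 2850 higher and 346 to 1636 lower at an unadjusted p under 0.05, and the lone library of a group was then assumed to vary like the other group. The labels do not say that replicate numbers pair the samples. The correlation of replicate differences between the groups was 0.3565 over entries, and with only 2 pairs this leaves pairing undecided. A fit with the replicate number as a block called 200 entries lower, among them 2 members, 1 of them a copy (Rpn12R, adjusted p = 0.0387), and 1 related gene; 11 of the 12 copies were then lower at an unadjusted p under 0.05.

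Median-ratio rescaling turned the canonical median of 0.13 to −0.17, and quantile normalization to −0.20; it was 0.092 to 0.14 when 1 library was left out. The median of all entries was −0.023 and 0.044 under those scalings and 0.16 with a pseudocount of 5. The other log2 differences that turned with median-ratio rescaling were Rpn11 −0.077, Pros35 −0.24, Rpn3 −0.18, Rpt1 −0.091, Prosalpha7 −0.24, Rpn6 −0.21, Prosalpha5 −0.15, Pros29 −0.16, Prosbeta2 −0.12, Rpn12 −0.29, Pros26 −0.12, Rpn1 −0.28, Pros54 −0.17, Prosbeta7 −0.079, Rpn5 −0.21, Prosbeta3 −0.12, Pros25 −0.15, Rpn7 −0.11, Rpn9 −0.29, Pros26.4 −0.23, Rpn2 −0.21, Rpt3 −0.070, Pros28.1 −0.055, Pros45 −0.23, CG13779 −0.16, Tbp-1 −0.19, CG5384 −0.22, Pomp −0.27, TER94 −0.25, maf-S −0.013, Uch-L3 −0.21 and cnc −0.28. Those that turned with quantile normalization were Rpn11 −0.12, Pros35 −0.27, Rpn3 −0.11, Rpt1 −0.15, Prosalpha7 −0.28, Rpn6 −0.27, Prosalpha5 −0.20, Pros29 −0.20, Prosbeta2 −0.17, Rpn12 −0.29, Pros26 −0.15, Rpn1 −0.22, Pros54 −0.22, Prosbeta7 −0.15, Rpn5 −0.26, Prosbeta3 −0.15, Pros25 −0.22, Rpn7 −0.092, Rpn9 −0.32, Pros26.4 −0.26, Rpn2 −0.15, Rpt3 −0.12, Pros28.1 −0.090, Pros45 −0.26, CG13779 −0.28, CG13349 −0.0053, Tbp-1 −0.17, CG5384 −0.17, Pomp −0.21, TER94 −0.30, Uch-L3 −0.16 and cnc −0.23. Leaving out 1 library gave −1.01 to 0.31 for Prosbeta4R2, −0.094 to 0.025 for Prosbeta1, −0.11 to 0.053 for Rpt4, −0.12 to 0.039 for Mov34, −0.0074 to 0.077 for Pomp and −0.030 to 0.066 for cnc. The cause of these turns beyond the shift of the median was not tested. The promoter motif description was not run.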

Other observations

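CG10694, on the list of related genes, had the library pattern of the copies, at 1.81 and 0.285 FPKM in ND-75-i and 5.74 and 2.86 in Con (log2 difference −1.42, adjusted p = 0.141), and was singled out after its values were seen. It passed the threshold with a replicate block, with an adjusted p of 0.0484. The polyubiquitin gene Ubi-p63E was at 204 and 199 FPKM in ND-75-i and 251 and 220 in Con (log2 difference −0.22, adjusted p = 0.185), and passed as lower after quantile normalization, with an adjusted p of 0.0471.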
